A study of Homo sapiens with 11 samples.

Results

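The genes described here are the 8 that make up the HIF oxygen-sensing switch: the transcription factor subunits HIF1A, EPAS1 and ARNT, the ubiquitin ligase component VHL, and the oxygen-dependent hydroxylases EGLN1, EGLN2, EGLN3 and HIF1AN. They were chosen by symbol, and all 8 are among the 28152 gene symbols of the deposited count table. RNA came from tumours of BT-474, an established line of human breast cancer given in the labels as HR+/Her2+, grown with Matrigel in the mammary fat pad of female athymic nude mice, which lack mature T cells. All animals carried an estradiol pellet (0.72 mg, 90 days), and all libraries carry the label day 33. Vehicle animals (6 libraries) received mannitol in water under the skin every 4 days. Evexomostat animals (5 libraries) received evexomostat (SDX-7320 in the titles, SDX-7230 in another label), an inhibitor of methionine aminopeptidase 2, on the same schedule at 12 mpk, and the question was which genes differ between the groups. Each library was made from a portion of a tumour, which can also hold cells of the mouse host. The labels do not state that each library came from its own animal, so the p-values measure the spread between these libraries.

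HIF is a pair of proteins: an oxygen-labile alpha subunit, encoded by HIF1A or EPAS1 (HIF-2 alpha), and the stable beta subunit encoded by ARNT. When oxygen is present, the prolyl hydroxylases of the EGLN genes (PHD2 for EGLN1, PHD1 for EGLN2, PHD3 for EGLN3) mark the alpha subunit, VHL binds the marked protein and has it degraded, and the asparaginyl hydroxylase of HIF1AN (FIH) blocks its contact with coactivators. In low oxygen the alpha subunit persists and switches on genes of glycolysis, pH control and vessel growth, and also EGLN1 and EGLN3 themselves, which closes a feedback loop. Most of this control acts on protein, which RNA counts do not measure.

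The libraries held 22808033 to 39249329 counts. Vehicle 001 stood apart: its 100 most abundant genes held 23.9% of all reads counted there (16.2% to 17.9% elsewhere), and its ribosomal protein genes held 13.5% (4.57% to 8.24% elsewhere). Because that library moved several of the 8 genes, the fold change of each tested member is given with and without it. The choice was made after its values were seen, so results without it follow in part from that choice. Of the 11 edgeR fits that each left out 1 library, only this one called any member. Of 12 genes of luminal epithelium, 5 averaged under 1 CPM (counts scaled to library size with TMM factors), namely ESR1 (0.286), PGR (0.0654), CDH1 (0.453), KRT19 (0.804) and TFF1 (0.0569). KRT8 averaged 333 CPM, KRT18 149, XBP1 131 and ERBB2 53.3, while GATA3 averaged 6.5, EPCAM 3.05 and FOXA1 1.05. The hormone receptors of the labelled cell type were thus close to 0, and several of its other markers were low. Whether the tumours match the labelled cell type was not tested. Of the host cell types, skeletal muscle had the largest median fold change. All 10 tested muscle genes, of 14 listed, were positive (median log2 fold change 2.90, and 2.79 without vehicle 001). Of these, 8 had an unadjusted p under 0.05 in edgeR, against 13.4% of all genes, and 0 passed the adjusted threshold, against 0.606%. CKM, TNNT3, TNNI2 and MYLPF averaged 0.0833 to 0.558 CPM and were not tested. Summed levels were 6.47 to 25.5 CPM under vehicle and 9.06 to 550 under evexomostat, highest in evexomostat 005. ACTA1 was at 2.47 ± 2.22 CPM under vehicle and 35.05 ± 59.15 under evexomostat (SD), so its SD exceeded its mean there. Summed markers of host fibroblasts ran from 469 to 2110 CPM under vehicle and 536 to 1120 under evexomostat. The largest members of that sum were COL3A1 (mean 591 CPM) and COL1A1 (166). COL1A2 (42.9), PDGFRB (26.7) and FAP (20.4) were lower, and DCN (0.39), LUM (1.04) and PDGFRA (1.48) were close to 0. In the same group order, macrophage markers ran from 79.1 to 118 and 85.3 to 98.5 CPM, and adipocyte markers from 19.9 to 77.4 and 18.6 to 41.8. The largest members of the macrophage sum were CD68 (mean 38.7 CPM), LYZ (27.7) and ITGAM (23.6), while C1QB was at 0 in all libraries. Those of the adipocyte sum were PLIN4 (21.8) and CFD (10.3), while ADIPOQ was at 0 in all libraries. The part of these host cell types in the results was not tested.

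The 3 promoters below are shown because HIF1A, EGLN1 and EGLN3 had an unadjusted p-value under 0.05 in the comparison of all 11 libraries, and because EGLN1 and EGLN3 are textbook HIF targets. Each is the 250 bases before the RefSeq start of the gene, written 5′ to 3′ on the gene's own strand in build GRCh38.p14. Capitals mark the core of the hypoxia response element, searched as ACGTG and GCGTG on both strands. The HIF1A stretch lies at chr14:61695263-61695512 (plus strand), EGLN1 at chr1:231422288-231422537 (minus strand) and EGLN3 at chr14:33951075-33951324 (minus strand).
HIF1A: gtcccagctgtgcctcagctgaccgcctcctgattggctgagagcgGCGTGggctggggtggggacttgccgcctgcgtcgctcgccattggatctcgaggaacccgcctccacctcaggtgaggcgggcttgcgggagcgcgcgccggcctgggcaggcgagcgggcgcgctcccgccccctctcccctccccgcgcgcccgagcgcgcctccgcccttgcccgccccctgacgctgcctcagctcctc
EGLN1: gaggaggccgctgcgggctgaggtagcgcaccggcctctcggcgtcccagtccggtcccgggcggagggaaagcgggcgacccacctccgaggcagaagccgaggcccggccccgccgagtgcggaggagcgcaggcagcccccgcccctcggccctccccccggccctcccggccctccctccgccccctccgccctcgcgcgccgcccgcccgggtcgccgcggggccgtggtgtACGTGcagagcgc
EGLN3: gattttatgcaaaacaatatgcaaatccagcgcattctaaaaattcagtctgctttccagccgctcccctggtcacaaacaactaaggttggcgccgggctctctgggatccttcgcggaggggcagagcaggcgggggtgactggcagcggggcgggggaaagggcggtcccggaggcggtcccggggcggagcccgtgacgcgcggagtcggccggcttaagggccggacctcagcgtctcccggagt

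The EGLN1 stretch holds 1 ACGTG, which begins 13 bases before the start, and the HIF1A stretch holds 1 GCGTG, which begins 204 bases before it. The EGLN3 stretch holds neither. Among the other members, EPAS1 had 1 GCGTG, EGLN2 had ACGTG read on both strands of a single CACGTG, and ARNT and HIF1AN had neither. Of 27305 promoter stretches of the same length, 18.7% held ACGTG, 31.9% GCGTG and 43.1% at least 1 of them. These matches describe the letters in this window only.

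How far HIF1A separated the groups depended on vehicle 001. Under vehicle its lowest level was 34.2 CPM (vehicle 001), its median 158.3 and its highest 295.0 (vehicle 007). Under evexomostat it was at 64.2, 38.0, 63.6, 80.9 and 70.3 CPM in replicates 002, 003, 004, 005 and 007. All 5 evexomostat tumours lay below the 5 vehicle tumours other than 001, the lowest of which was at 128.5 CPM, and vehicle 001 lay below all of them. Group means were 164.2 ± 87.1 CPM (SD, n = 6) and 63.4 ± 15.8 (SD, n = 5). With all libraries the log2 fold change was -1.37 (SE 0.40, 95% interval -2.23 to -0.52, adjusted p 0.141 by edgeR). Without vehicle 001 HIF1A fell by 1.58 on the log2 scale (SE 0.24, adjusted p 0.00873 by edgeR), from 190.2 ± 66.4 CPM, a 3.00-fold higher mean than under evexomostat.

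EPAS1, the other alpha subunit, did not separate the groups. Its levels ran from 119.7 to 254.4 CPM under vehicle, with a median of 147.5, and were 234.9, 113.7, 136.5, 199.9 and 229.0 CPM in the evexomostat replicates in the same order as above. The groups overlapped over nearly their whole range. The log2 fold change was 0.14 (SE 0.24, 95% interval -0.38 to 0.67, adjusted p 0.866 by edgeR), and without vehicle 001 it was 0.08 (SE 0.25, adjusted p 0.875 by edgeR). Vehicle 007, with the highest HIF1A of all tumours, had the second lowest EPAS1 of all.

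Scaled by transcript length, the log2 ratio of HIF1A to EPAS1 was -1.49 in vehicle 001, between -0.25 and 1.69 in the other vehicle tumours, and between -1.49 and -0.72 under evexomostat. EPAS1 was therefore the more abundant alpha transcript in all 5 evexomostat tumours and in 3 of 6 vehicle tumours. Whether the 2 genes differ in their response was not tested. EPAS1 is also a gene of endothelium. The 14 endothelial genes listed together made up 30.4 to 45.0 CPM under vehicle and 35.7 to 47.8 under evexomostat. The largest members of that sum were EGFL7 (mean 18 CPM), KDR (5.51), PECAM1 (4.98) and ROBO4 (3.71). CDH5 (0.0119), EMCN (0.0407) and TIE1 (0.0904) were close to 0. The part of endothelial RNA in the EPAS1 level was not tested. In bulk tissue, fewer cells of a type and less RNA per cell cannot be told apart.

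ARNT, the shared beta subunit, lay in a narrower band. Apart from vehicle 001, at 55.5 CPM, the vehicle tumours ran from 130.2 to 179.5 CPM, and the evexomostat tumours were at 127.3, 101.3, 120.0, 128.4 and 115.1 CPM. The highest evexomostat tumour was thus just under the lowest of those 5 vehicle tumours. With vehicle 001 the log2 fold change was -0.26 (SE 0.24, 95% interval -0.77 to 0.25, adjusted p 0.702 by edgeR). Without it ARNT fell by 0.42 (SE 0.11, adjusted p 0.0428 by edgeR), a mean of 159.4 ± 19.4 against 118.4 ± 11.02 CPM.

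**Figure D1:**
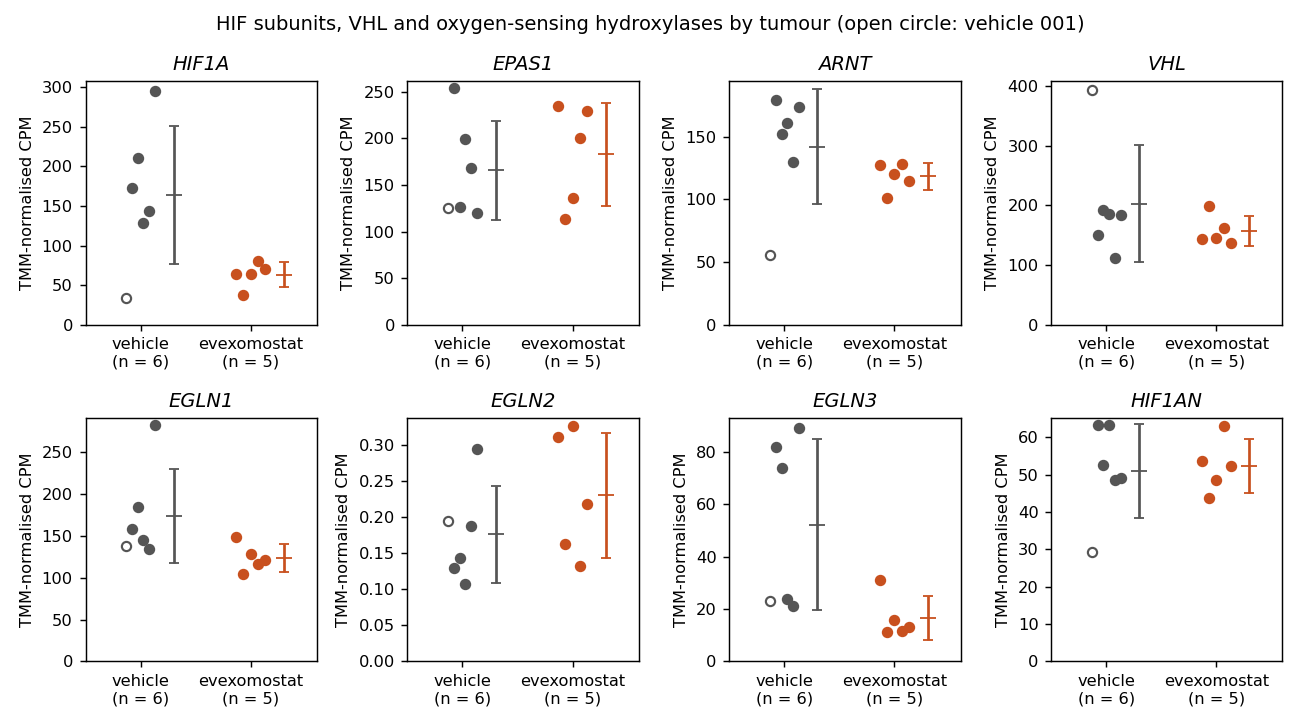
TMM-normalised CPM of the 8 genes, 1 point per tumour, in 6 vehicle and 5 evexomostat tumours; the open circle is vehicle 001, and bars are mean ± SD. For HIF1A all evexomostat tumours lie at or below 80.9 CPM, and vehicle 001 (34.2 CPM) lies below all of them. The EPAS1 groups overlap over most of their range. Each panel has its own axis from 0.

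EGLN3, a hydroxylase gene strongly induced by HIF, spread widely among untreated tumours. Under vehicle it was at 21.0 CPM at its lowest, 49.0 at its median and 89.1 at its highest: vehicle 003, 004 and 007 were at 82.0, 74.0 and 89.1 CPM, and 001, 005 and 006 at 21.0 to 23.9. Under evexomostat replicate 002 was at 31.1 CPM and the other 4 at 11.1, 15.9, 11.8 and 13.3. Only evexomostat 002 reached the range of the vehicle tumours. Group means were 52.2 ± 32.7 CPM (SD, n = 6) and 16.6 ± 8.29 (SD, n = 5). The log2 fold change was -1.65 (SE 0.45, 95% interval -2.62 to -0.68, adjusted p 0.126 by edgeR), and without vehicle 001 EGLN3 fell by 1.80 (SE 0.44, adjusted p 0.0377 by edgeR).

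EGLN1, the main hydroxylase acting on HIF1A in most cells, had its highest level in vehicle 007 (282.1 CPM), against 134.8 to 184.0 in the other vehicle tumours. The evexomostat tumours were at 149.1, 104.6, 127.9, 115.9 and 121.4 CPM, and only replicate 002 reached the vehicle range. The log2 fold change of -0.49 (SE 0.19, 95% interval -0.91 to -0.07) had an unadjusted p of 0.0258 and an adjusted p of 0.290 by edgeR. Leaving out vehicle 001 gave -0.54 (SE 0.19, adjusted p 0.107 by edgeR), so EGLN1 did not pass the threshold of 0.05 in either comparison.

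EGLN2 had 4 to 10 counts per library, a mean of 0.200 RPM (reads divided by the library total, on the same scale), and was too low to enter the test. Its symbol shares 66.6% of its exonic bases (GENCODE 29 basic set) with the readthrough gene RAB4B-EGLN2, which is also in the table and has 0 counts in all libraries, as has RAB4B. A count of 0 allows up to 0.0764 to 0.132 RPM, depending on the library, for counting error only. Its level is therefore uncertain, and whether shared reads went uncounted was not tested. In the antisense direction, HIF1A shares 2.75% of its exonic bases with HIF1A-AS1, which had 0 to 24 counts per library against 706 to 8025 for HIF1A. The 6 other members share no exonic bases with another symbol of the table.

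HIF1AN, the asparaginyl hydroxylase, was at 29.2 CPM in vehicle 001 and at 48.5 to 63.3 in the other vehicle tumours. Its evexomostat levels of 53.6, 43.7, 48.6, 63.1 and 52.2 CPM overlapped that range. The log2 fold change was 0.04 (SE 0.18, 95% interval -0.36 to 0.43, adjusted p 0.963 by edgeR), and -0.08 without vehicle 001 (adjusted p 0.731 by edgeR). VHL went the opposite way in vehicle 001, which had 394.0 CPM against 111.4 to 193.1 in the other vehicle tumours. The evexomostat tumours had 144.0, 199.0, 146.0, 161.4 and 137.4 CPM of VHL, within the range of those others except for replicate 003. The log2 fold change of VHL was -0.36 (SE 0.26, 95% interval -0.93 to 0.21, adjusted p 0.618 by edgeR) with that library and -0.06 without it (SE 0.16, 95% interval -0.40 to 0.28, adjusted p 0.856 by edgeR).

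Counted together, 0 of the 7 tested members passed an adjusted p-value of 0.05 in edgeR's quasi-likelihood test over all 11 libraries, where 0.606% of all 16653 tested genes passed and 0.432% passed as lower. At an unadjusted p under 0.05 there were 3 members (HIF1A, EGLN1 and EGLN3), against 13.4% of all genes. DESeq2 called 2 members, HIF1A and EGLN3, against 3.92% of all genes, and limma-voom with sample quality weights called the same pair, against 6.36%. The authors' deposited table lists HIF1A (log2 fold change -1.30, adjusted p 0.0387) and EGLN3 (-1.58, adjusted p 0.0165) below 0.05, among 0.952% of its symbols. The test behind it is not stated. Its fold changes for the tested members nearly equal those of edgeR scaled by library size only. In that edgeR fit HIF1A (adjusted p 0.185) and EGLN3 (adjusted p 0.153) did not pass. Without vehicle 001, 3 members passed in edgeR, all lower (HIF1A, ARNT and EGLN3), against 5.22% of 16565 genes, or 3.24% for lower genes alone. At an unadjusted p under 0.05 there were then 4 members, against 24.4%. Groups overlapped in all 7 tested members with vehicle 001, where 2.97% of genes did not overlap. Without vehicle 001, the tumour lowest in both genes, HIF1A and ARNT did not overlap, against 8.35% of genes.

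**Figure D2:**
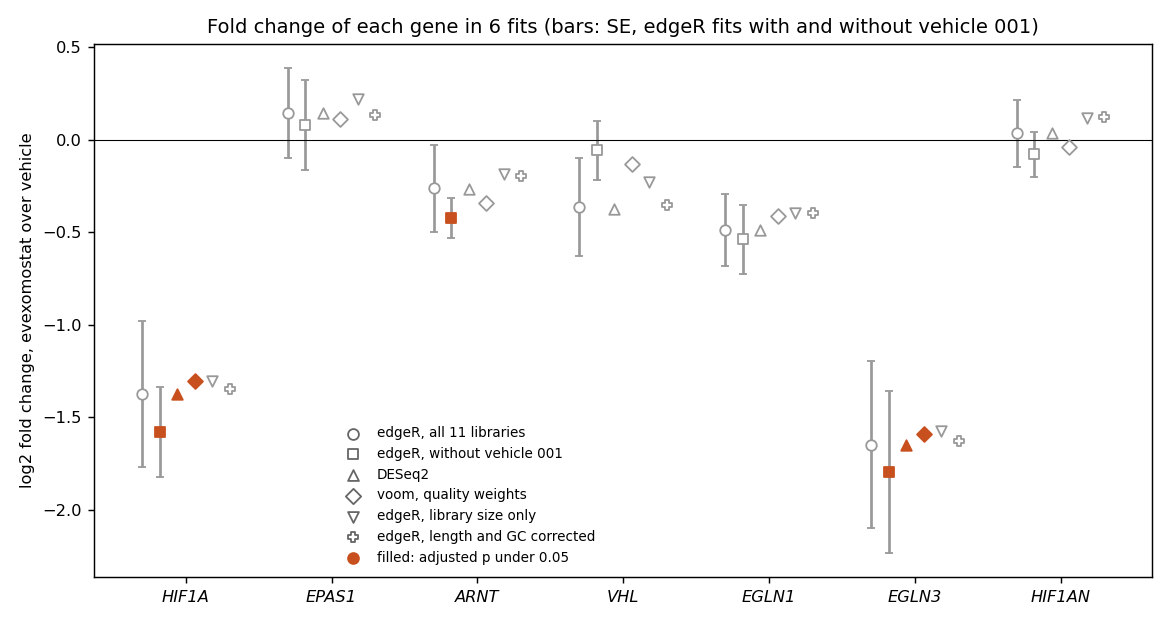
Log2 fold change (evexomostat over vehicle) of the 7 tested members in 6 fits; filled symbols have an adjusted p under 0.05 over all genes, and bars show the SE of the edgeR fits with and without vehicle 001. HIF1A and EGLN3 lie below -1 in each of the 6, while EPAS1 and HIF1AN lie near 0.

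HIF1A, EGLN3, EGLN1, ARNT and VHL had negative fold changes in all 25 alternatives tried, while EPAS1 changed sign in 2 and HIF1AN in 5, never past the threshold. HIF1A ranged from -1.68 to -1.06 and EGLN3 from -2.38 to -1.34, and each passed the threshold in 5 of 25. After a per-library correction for transcript length and GC content, added after the data were seen, vehicle 001 still had the lowest HIF1A of all tumours (27.2 CPM) and the highest VHL (431.4).

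Length-scaled levels, in CPM per kb of the longest coding transcript in GENCODE 29, put the genes in an order that differed between groups. Under vehicle the means were 54.3 ± 26.4 for VHL, 41.5 ± 22 for HIF1A, 32.1 ± 10.3 for EPAS1, 29.1 ± 9.38 for ARNT, 24.5 ± 7.91 for EGLN1, 18.3 ± 11.5 for EGLN3 and 3.92 ± 0.966 for HIF1AN (SD, n = 6). Neighbours in that order from VHL to EGLN3 lay within 1 SD of each other, and only HIF1AN stood clear. Under evexomostat the order was VHL (42.2 ± 6.63), EPAS1 (35.4 ± 10.6), ARNT (24.2 ± 2.26), EGLN1 (17.4 ± 2.33), HIF1A (16.0 ± 3.99), EGLN3 (5.83 ± 2.91) and HIF1AN (4.02 ± 0.552; SD, n = 5). Without vehicle 001, in which VHL was at 105 and HIF1A at 8.65, the vehicle means were 48.1 for HIF1A, 44.0 for VHL, 33.6 for EPAS1, 32.6 for ARNT, 25.5 for EGLN1, 20.4 for EGLN3 and 4.25 for HIF1AN, so that HIF1A came before VHL. Under evexomostat HIF1A came after VHL, EPAS1, ARNT and EGLN1, and it overlapped EGLN1. HIF1AN is divided by an unusually long transcript (13.011 kb), so its place depends on the isoform assumed.

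**Figure D3:**
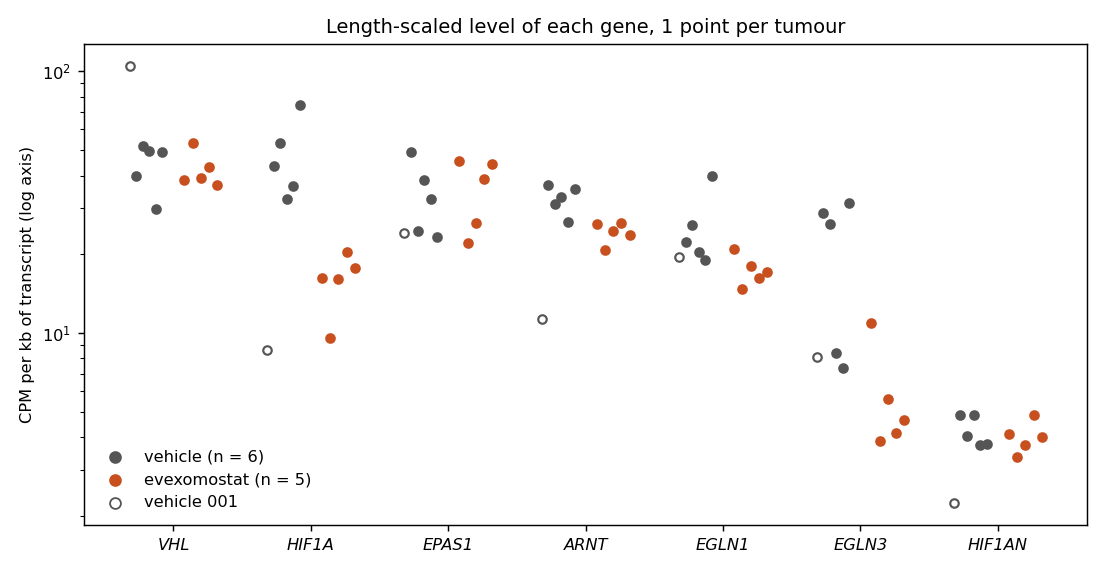
CPM per kb of transcript (log axis) of the 7 tested members, 1 point per tumour, ordered by the vehicle mean; the open circle is vehicle 001. Under vehicle HIF1A runs from 8.65 to 74.6 and EPAS1 from 23.2 to 49.2. HIF1A lies below EPAS1 in vehicle 001, 003 and 005 and in each of the 5 evexomostat tumours.

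Across the 11 tumours, EGLN1 and EGLN3 moved together (Pearson r of log2 CPM 0.88, and 0.88 without vehicle 001), and HIF1A moved with both (0.77 and 0.77, or 0.85 and 0.84 without it). ARNT followed HIF1A at 0.83 and EPAS1 did not (0.08). VHL ran against ARNT (-0.65) and HIF1AN (-0.70) with vehicle 001 included, and the values without it were 0.18 and 0.01. These values describe 11 or 10 libraries that include both treatment groups, and carry no test.

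The genes most like each member were taken from 13231 tested genes by the smaller of the correlations with and without vehicle 001. EGLN3 was most like DEPP1 (0.99 over 11 libraries), ADM (0.94), which encodes the vasodilator adrenomedullin, and STC1 (0.94), which encodes stanniocalcin 1. HIF1A was most like APP, the amyloid precursor, LAMC1, a laminin chain, and RAB6A, a Golgi trafficking GTPase (0.97, 0.97 and 0.98). EGLN1 was most like TP53BP2, the BMP receptor gene ACVR1 and the transcription factor gene SP3 (0.97, 0.97 and 0.96). ARNT was most like PATL1, ADAM17 and CHD8 (0.98, 0.97 and 0.99), EPAS1 like DNAJC6, WAPL and LRRC20 (0.95, 0.94 and 0.93), HIF1AN like R3HCC1L, WDR81 and KDM3B (0.93, 0.96 and 0.95), and VHL like CCDC88A, TCF4 and HNRNPH1 (0.93, 0.90 and 0.82).

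Genes that HIF is known to induce were low in the same tumours as EGLN3. All 30 of 30 listed hypoxia-induced genes had negative fold changes under evexomostat, with a median of -0.77. Over all tested genes the median was -0.04, and 55.4% were negative. At an unadjusted p under 0.05 there were 20 of the 30, against 13.4% of all genes. Only P4HA1, a collagen prolyl hydroxylase, passed over all 11 libraries, from 128.1 ± 46.9 to 49.7 ± 6.19 CPM (log2 fold change -1.37, SE 0.23, adjusted p 0.0233 by edgeR). Without vehicle 001 P4HA1 was at -1.39 (adjusted p 0.0113 by edgeR). The call over all libraries was lost when any 1 of the 5 evexomostat libraries was left out, which left 0 of 30. DESeq2 called 11, against 3.92% of all genes. Without vehicle 001 edgeR called 14 of 30, all lower, against 3.24% of all genes called as lower, and the list's median was -0.89. CA9, the tumour carbonic anhydrase, was at 27.5 ± 28.4 CPM under vehicle and 1.88 ± 1.65 under evexomostat (log2 fold change -3.86, SE 0.84, adjusted p 0.0663 by edgeR), and fell by 4.03 without vehicle 001 (adjusted p 0.0233 by edgeR). BNIP3L, a mitophagy receptor, had a log2 fold change of -0.92 (SE 0.21, adjusted p 0.0703 by edgeR) and fell by 0.94 without it (0.0312). The most abundant, ENO1 of glycolysis, was at 2288 ± 379 and 2019 ± 332 CPM (log2 fold change -0.18, adjusted p 0.718 by edgeR, and 0.513 without vehicle 001).

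By the mean log2 CPM of this list, vehicle 007 (7.30), 003 (6.83) and 004 (6.42) were the highest of the 11 tumours. They are also the 3 with EGLN3 above 70 CPM, the 3 with the highest HIF1A and the 3 with the highest EGLN1. The other vehicle tumours were at 5.42 to 5.92. The evexomostat tumours were at 5.17 to 5.77, with replicate 002, the one with the most EGLN3, the highest of the 5. Vehicle 001 (5.42) and vehicle 006 (5.65) lay inside the evexomostat range in this list. In HIF1A vehicle 001 lay below the evexomostat range and vehicle 006 above it.

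**Figure D4:**
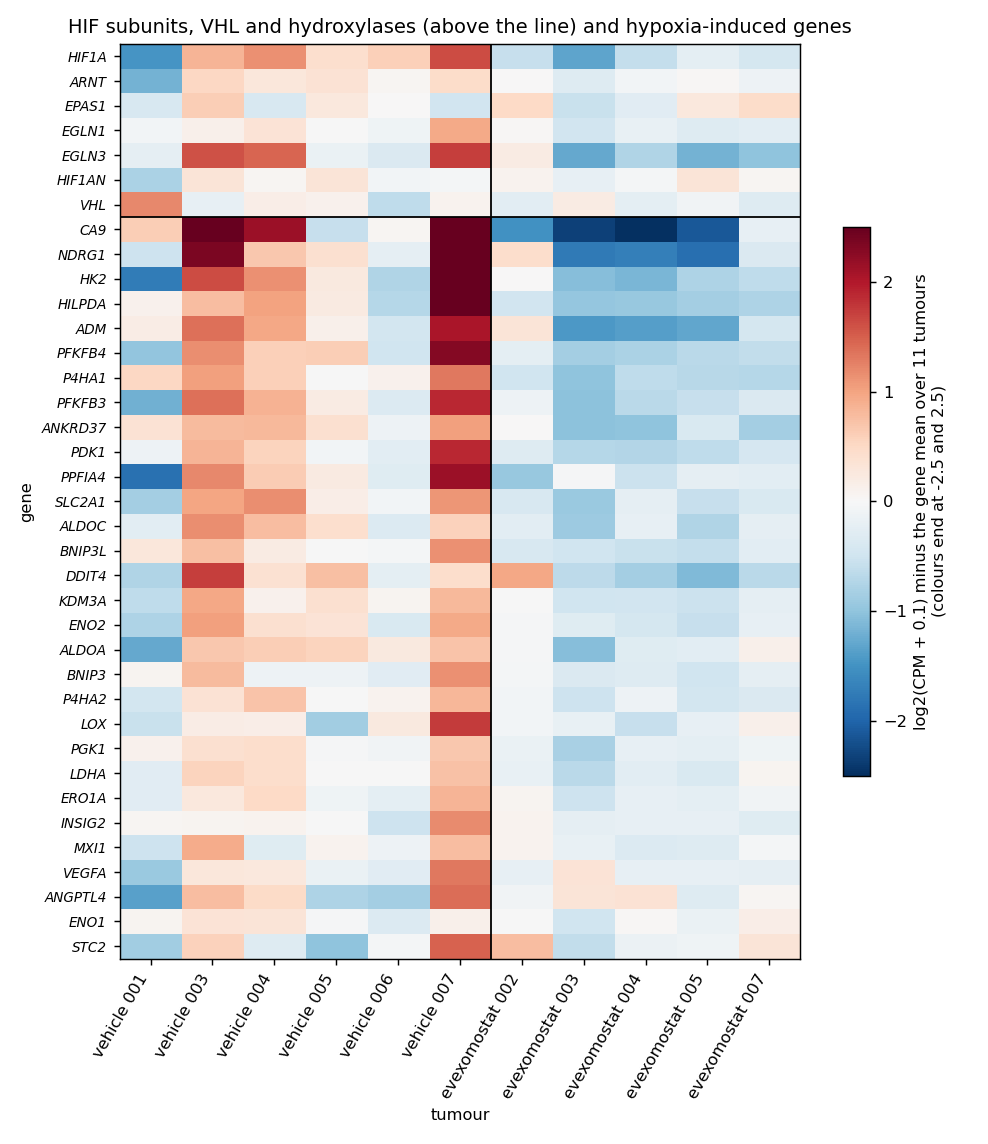
Log2(CPM + 0.1) relative to each gene's mean over 11 tumours, for 7 members (above the line) and 30 hypoxia-induced genes (below, sorted by fold change), with vehicle tumours on the left. Vehicle 003, 004 and 007 are above the mean for most of the 30 genes, as for HIF1A, EGLN1 and EGLN3, and EPAS1, HIF1AN and VHL show another pattern.

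Partners of the HIF subunits were next examined as a group. Of 9 genes, 8 were tested and 0 passed in edgeR over all libraries. At an unadjusted p under 0.05 there were 2, against 13.4% of all genes, and DESeq2 called 2, against 3.92%. ARNTL, a clock factor related to ARNT, was at 16.3 ± 3.53 CPM under vehicle and 9.82 ± 1.57 under evexomostat (log2 fold change -0.73, SE 0.19, adjusted p 0.0992 by edgeR). Without vehicle 001 it fell by 0.82 (adjusted p 0.0119 by edgeR). The coactivator genes NCOA1 (by 0.48, adjusted p 0.0233 by edgeR) and EP300 (by 0.45, adjusted p 0.0143 by edgeR) fell too. Thus 3 of 8 passed without vehicle 001, against 5.22% of all genes. CREBBP, the paralog of EP300, was at -0.20 in that comparison (adjusted p 0.273 by edgeR), and ARNT2 at 0.20 (0.493). HIF3A, the third alpha subunit, had 1 to 27 counts per library and was not tested. Its highest count came from evexomostat 005, the tumour with the highest sum over the skeletal muscle genes (550 CPM). In that tumour HIF1A was at 80.9 and EGLN3 at 11.8 CPM, and the part of muscle RNA in these levels was not tested.

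The rest of the VHL ligase was measured by 9 genes, among them CUL2, the cullin scaffold, and the E2 enzyme gene UBE2D3, the most abundant. None passed in edgeR over all libraries, against 0.606% of all genes, or without vehicle 001, against 5.22%. With all libraries 0 had an unadjusted p under 0.05, against 13.4% of all genes, and DESeq2 called 0, against 3.92%. CUL2 was at 64.6 ± 10.5 and 55.4 ± 5.99 CPM (log2 fold change -0.22, adjusted p 0.517 by edgeR, and 0.334 without vehicle 001), and UBE2D3 at 258.8 ± 16.6 and 251.6 ± 10.03. The largest response by p-value was that of UBE2M, a NEDD8-conjugating enzyme (log2 fold change 0.21, SE 0.10, adjusted p 0.403 by edgeR, and 0.0846 without vehicle 001). The list's median was -0.09 with vehicle 001, 0.15 without it, and 0.03 with all libraries scaled by total counts only, so its sign depends on that library and on the scaling. In 18 genes that regulate HIF or hydroxylase stability, 0 passed either way in edgeR or over all libraries in DESeq2. The shares of all genes for these comparisons are those given above. At an unadjusted p under 0.05, against 13.4% of all genes, 1 was lower and 1 was higher. These were the deubiquitinase genes USP33 (log2 fold change -0.29, adjusted p 0.287 by edgeR, and 0.125 without vehicle 001) and USP20 (0.29, adjusted p 0.371 by edgeR, and 0.198 without vehicle 001), both of which are described as VHL-interacting.

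The hydroxylases need iron and 2-oxoglutarate, and the 22 genes listed for their supply were mostly below 0, with 21 of 22 negative and a median of -0.26 (20 of 22 and -0.19 without vehicle 001). Over all libraries 0 passed in edgeR. At an unadjusted p under 0.05 there were 5, against 13.4% of all genes, and DESeq2 called 2, against 3.92%. TFRC, the transferrin receptor that brings iron into cells, was at 267.4 to 347.1 CPM under vehicle and at 180.9, 106.5, 209.0, 197.1 and 155.3 under evexomostat, without overlap. Its log2 fold change of -0.82 (SE 0.17) just missed the threshold with all libraries (adjusted p 0.0503 by edgeR) and passed without vehicle 001 (-0.85, adjusted p 0.0174 by edgeR). FTH1, the ferritin heavy chain, was at 1285 ± 501 and 678.6 ± 72.4 CPM (log2 fold change -0.92, SE 0.26, adjusted p 0.133 by edgeR), and fell by 1.06 without that library (adjusted p 0.0117 by edgeR). The iron importer gene SLC11A2 also passed there (-0.42, adjusted p 0.0476 by edgeR). This made 3 of 22, all lower, against 3.24% of all genes called as lower. Of the genes for enzymes that make or use 2-oxoglutarate, IDH1 was at -0.61 (adjusted p 0.315 by edgeR), IDH3A at -0.57, IDH2 at -0.28, OGDH at -0.25 and IDH3B at -0.06, and none of these 5 passed with or without vehicle 001. SDHA, SDHB, SDHC, SDHD and FH, whose enzymes act on succinate and fumarate, were between -0.26 and -0.07 with adjusted p-values of 0.484 or more, and none passed without that library, where SDHB was at 0.06.

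The list of other oxygenases held 26 genes, most of them for 2-oxoglutarate-dependent enzymes and 1, ADO, for a thiol dioxygenase. Over all libraries 0 passed in edgeR. At an unadjusted p under 0.05 there were 5 lower and 1 higher, against 13.4% of all genes, and DESeq2 called 1, against 3.92%. The list's median was -0.09, and 0.03 on the RPM scale. Without vehicle 001 the histone demethylase genes KDM3A (-0.85, adjusted p 0.0285 by edgeR) and KDM7A (-0.76, adjusted p 0.0349 by edgeR) were lower. These were 2 of 26, against 3.24% of all genes called as lower. KDM3A is itself a HIF target and stands in the hypoxia list too. TET2, a DNA demethylase, was lower in all evexomostat tumours than in any vehicle tumour (log2 fold change -0.56, adjusted p 0.167 by edgeR, and 0.0622 without vehicle 001). The most abundant, KDM5C, was at 282.2 ± 102.8 and 281.8 ± 34.9 CPM, with a log2 fold change of -0.18 without vehicle 001 (adjusted p 0.381 by edgeR).

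Of 12 genes that act on HIF1A transcription or translation, 0 passed in edgeR over all libraries. At an unadjusted p under 0.05 there were 3, against 13.4% of all genes, and DESeq2 called 1, against 3.92%. Without vehicle 001 edgeR called 4, against 5.22% of all genes. STAT3, a cytokine-activated factor, had 186.2 to 236.1 CPM under evexomostat against 230.2 in vehicle 001 and 281.6 to 408.4 in the other vehicle tumours, and fell by 0.64 without that library (adjusted p 0.0146 by edgeR). The NF-kB subunit genes NFKB1 (by 0.48, adjusted p 0.0278) and RELA (by 0.41, adjusted p 0.0413) fell too, and EIF4EBP1, which restrains cap-dependent translation, rose by 0.59 (adjusted p 0.0455 by edgeR). With vehicle 001 included, the log2 fold changes of these 4 were -0.57, -0.38, -0.27 and 0.24, with adjusted p-values by edgeR of 0.112, 0.301, 0.643 and 0.771.

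**Figure D5:**
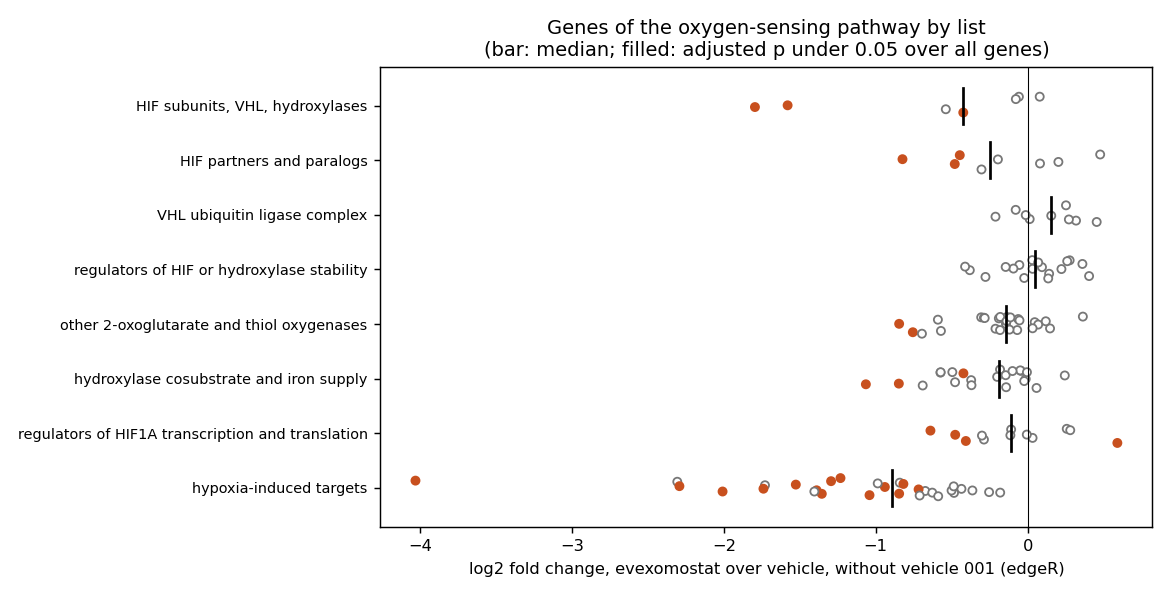
Log2 fold changes without vehicle 001 (edgeR) of the genes in 8 lists, 1 point per tested gene; the bar is the list median, and filled points have an adjusted p under 0.05 over all genes. The hypoxia-induced genes all lie below 0, and the VHL ligase list has no filled point. With vehicle 001 included, P4HA1 alone among these genes had an adjusted p under 0.05 by edgeR.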

How the data were processed

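RNA from 11 tumours (6 vehicle, 5 evexomostat) was sequenced, with groups and replicate numbers taken from the titles and columns matched by the description code. Per the submitters' processing notes, the tools named were bcl2fastq 2.17, STAR 2.7.5c, featureCounts, Subread and edgeR and the build GRCh37 (hg19), without their roles. The annotation, strand use and handling of mouse reads are not given in the sources used here. The deposited counts are whole reads per symbol, and the deposited RPM values are counts divided by the column total (largest difference 2e-13). The authors' table gives log2 fold changes, p-values and adjusted p-values by a test that is not stated.

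Genes were kept with filterByExpr (minimum count 10, minimum total 15), which left 16653 of 28152 symbols, scaled with TMM factors and tested with edgeR 4.0.16 (quasi-likelihood F-test, R 4.3.3, no covariates). Adjusted p-values (Benjamini-Hochberg, all tested genes) had a threshold of 0.05, and the SE follows from the F statistic. Alternatives used DESeq2 1.42.0, limma 3.58.1 (voom with and without sample quality weights, and log2(RPM + 1) or log2(RPM + 0.1)), other scalings and filters, thinned counts, a block and each library left out. Lengths and GC content came from GENCODE 29, matched for 94.55% of tested genes. Promoters came from RefSeq (GRCh38.p14) for 7 of the 8 members, all but VHL. Each fit was run on simulated data with known changes, in which all libraries otherwise shared the same mean gene profile. The simulated data held no library like vehicle 001, so they do not show how the fits treat such a library. All 8 members were named. From each other list, genes past the threshold, the 3 smallest p-values and the most abundant gene were eligible, and further genes were named after their values were seen. The members and lists were chosen with earlier results of these data known.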

Additional observations from a re-analysis of the deposited data

Results flagged for a closer look

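For each tested member and each pathway list, the highest and lowest tumour of each group was compared with the rest of its group by Dixon's criterion. Of 28 groups examined 6 had a tumour that stood apart, where chance gives about 1 in 20. Vehicle 001 accounts for 4: VHL at 394.0 CPM, against 111.4 to 193.1 in the other vehicle tumours, and 3 list levels (mean log2 CPM). These were 4.54 for HIF partners, against 4.96 to 5.17, 7.25 for the VHL ligase complex, against 6.29 to 6.39, and 6.86 for regulators of HIF or hydroxylase stability, against 6.63 to 6.67. EGLN1 reached 282.1 CPM in vehicle 007, against 134.8 to 184.0 in the others. EGLN3 reached 31.1 CPM in evexomostat 002, against 11.1 to 15.9.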

How the results depend on the processing

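The length and GC correction was chosen after seeing the data. For the changes listed here the cause was not tested. The 101 genes past the threshold became 62 with library sizes only, 649 with DESeq2 and 1059 with quality weights, and 1 to 865 when each library was left out, the most without vehicle 001. Of calls, 28.7% were higher, 40.0% with upper quartile scaling and 54.8% with library sizes only. The median of all genes moved from -0.04 to 0.10 with log2(RPM + 0.1). The count of members, of 7 tested, went from 0 to 2 with DESeq2 (3.92% of all genes) and with quality weights (6.36%). It was 0 to 3 when each library was left out, and 0 in each of these but the one without vehicle 001 (5.22%). HIF1A passed with DESeq2 (-1.37) and quality weights (-1.30), and ranged from -1.58 to -1.12 when each library was left out. EGLN3 did so at -1.65 and -1.59, with a range of -2.005 to -1.43, and ARNT had a range of -0.42 to -0.18. HIF1AN was at -0.039 with quality weights, -0.078 without vehicle 001 and -0.041 without evexomostat 005, in a range up to 0.109. EGLN2 was at 0.42 without the count filter (edgeR adjusted p 0.717). Of the pathway lists, the 30 hypoxia-induced genes had 11 calls with DESeq2, against 3.92% of all genes, and 16 with quality weights, against 6.36%.

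Both groups hold replicates 003, 004, 005 and 007, and the labels do not state that same numbers are paired. The deviations of same-numbered tumours from their group means correlated at -0.27, 0.07, 0.05 and -0.10. Differently numbered tumours were not compared, so these values cannot decide whether the tumours are paired. Of 16588 tested genes and 7 tested members, 107 and 2 passed with a replicate block on these 8 libraries. Without the block on the same 8, 733 and 3 passed. In that order HIF1A was at -1.68 and -1.68, EGLN3 at -2.24 and -2.38, EPAS1 at -0.03 and -0.05, and HIF1AN at -0.15 and -0.14. ARNT passed only without the block (-0.53).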

Other observations

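EGLN2 is not the only gene of its kind with almost no counts. The table holds 147 readthrough symbols whose 2 partners are also listed, and in 75 of them the downstream partner had at most 10 counts in every library, as had the upstream partner in 26. Of all 28152 symbols, 35.98% had at most 10 counts in every library. Whether reads shared with readthrough genes were left uncounted was not tested.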
